A study of Mus musculus with 20 samples.

Results

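The 10 genes described here carry the IL-33 and type 2 immune response, and they were taken as every row of the deposited gene lists whose symbol equalled Il33, Il1rl1, Il4, Il5, Il13, Il4ra, Areg, Retnla, Mrc1 or Arg1. All 10 were found, among 31053 genes. They were followed in single stromal vascular cells of interscapular brown fat (iBAT) of mice, over the cells that make the signals and the cells that answer them, and across cold exposure and treatment with a β3 adrenergic agonist.

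The 20 libraries came from 10 experiments, each with 1 library of cells that bound antibodies against blood lineage markers on magnetic beads (Lin+) and 1 library of cells that did not (Lin-), from 3 to 4 pooled mice 8 to 14 weeks old. Male C57BL/6J mice (C57) were kept at room temperature (RT), exposed to 6 °C for 4 days (COLD, with mice housed singly) or given CL316,243 from osmotic pumps at 0.75 nmol per hour over 4 days (CL), a selective β3 agonist, and each of these groups had 2 experiments. Female mice of an Adrb1 line, which carries a floxed gene of the β1 adrenergic receptor, were either Adrb1 fl/fl; Pdgfra-CreER -/- (WT) or Adrb1 fl/fl; Pdgfra-CreER +/- (KO), and all of them had received tamoxifen. One experiment of each genotype was at RT and 1 in the cold. The Cre, CreERT2 in the study's methods, is driven from Pdgfra, so deletion is limited to cells that use this gene, which are mainly adipose tissue stromal cells (ASCs). In the Adrb1 line the RT libraries were made with version 3 of the kit and the cold libraries with version 2, so that kit and temperature cannot be told apart there, whereas all C57 libraries used version 2.

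IL-33 is an alarmin, a cytokine stored in the nucleus of stromal, endothelial and epithelial cells and released on damage or stress. It binds ST2, the receptor encoded by Il1rl1, on group 2 innate lymphoid cells (ILC2s), mast cells, basophils and regulatory T cells, which answer with the type 2 cytokines IL-4, IL-5 and IL-13 and with amphiregulin (Areg), a ligand of the EGF receptor. IL-4 and IL-13 act through IL-4Rα (Il4ra) and the transcription factor STAT6, and macrophages that receive this signal raise Retnla, the secreted protein RELMα, Mrc1, the mannose receptor CD206, and Arg1, the enzyme arginase 1. In adipose tissue this circuit has been studied for its links to eosinophils, alternatively activated macrophages and the recruitment of beige adipocytes.

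Promoter sequences of the genes on which the results turn are shown first: Il33, read below in stromal cells, and Retnla, Mrc1 and Il1rl1, read mainly in macrophages and dendritic cells. Each spans 250 bases before to 50 bases after a transcription start in RefSeq (GRCm38.p6), is written 5′ to 3′ on the strand of the gene, and has in capitals any match to the spaced palindrome TTCNNNNGAA, the form of site bound by STAT6, to TTCNNNGAA, the form bound by other STAT factors, or to AGATAA or TTATCT, the core bound by GATA factors such as GATA3 of ILC2s. Of 32851 promoters of the same length, 6.95% held the first motif, 8.30% the second and 11.2% the last. The table of promoters held entries for 9 of the 10 genes, and Arg1 had none.
Retnla (chr16:48842359-48842658, plus strand): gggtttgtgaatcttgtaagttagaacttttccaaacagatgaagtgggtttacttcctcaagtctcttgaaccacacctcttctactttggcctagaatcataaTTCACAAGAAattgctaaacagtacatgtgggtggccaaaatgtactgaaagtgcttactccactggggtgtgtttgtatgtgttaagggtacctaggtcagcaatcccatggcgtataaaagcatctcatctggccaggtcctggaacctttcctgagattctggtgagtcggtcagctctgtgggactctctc
Mrc1 (chr2:14229164-14229463, plus strand): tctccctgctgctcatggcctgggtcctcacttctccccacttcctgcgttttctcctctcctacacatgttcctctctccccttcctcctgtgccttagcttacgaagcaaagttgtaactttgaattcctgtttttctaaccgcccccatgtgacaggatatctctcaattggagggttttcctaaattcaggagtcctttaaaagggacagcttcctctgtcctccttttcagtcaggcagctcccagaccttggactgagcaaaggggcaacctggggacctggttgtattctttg
Il1rl1, start 1 (chr1:40429320-40429619, plus strand): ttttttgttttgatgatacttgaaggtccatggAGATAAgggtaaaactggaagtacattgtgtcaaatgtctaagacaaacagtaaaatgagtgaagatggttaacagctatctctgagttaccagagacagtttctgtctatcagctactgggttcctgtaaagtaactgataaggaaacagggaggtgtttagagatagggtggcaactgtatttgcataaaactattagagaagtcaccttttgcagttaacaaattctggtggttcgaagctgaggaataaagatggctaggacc
Il1rl1, start 2 (chr1:40439379-40439678, plus strand): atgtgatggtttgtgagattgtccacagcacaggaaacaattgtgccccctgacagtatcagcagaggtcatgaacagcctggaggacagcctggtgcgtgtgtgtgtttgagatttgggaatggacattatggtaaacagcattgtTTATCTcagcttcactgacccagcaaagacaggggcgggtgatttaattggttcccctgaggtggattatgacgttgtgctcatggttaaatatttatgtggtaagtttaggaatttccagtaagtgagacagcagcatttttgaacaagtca
Il33, start 1 (chr19:29924863-29925162, plus strand): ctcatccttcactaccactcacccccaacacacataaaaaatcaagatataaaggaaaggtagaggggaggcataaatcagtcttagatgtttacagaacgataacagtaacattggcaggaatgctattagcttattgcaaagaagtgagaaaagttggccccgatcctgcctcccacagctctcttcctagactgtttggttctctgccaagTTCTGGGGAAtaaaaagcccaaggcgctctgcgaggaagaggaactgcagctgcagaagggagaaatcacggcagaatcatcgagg
Retnla held 1 match to the first motif, TTCACAAGAA, which began 145 bases before the start (position -145), and the first start of Il33 held TTCTGGGGAA at position -36, while its second start, not printed, held none of the motifs. Each of the starts of Il1rl1 held 1 GATA core, AGATAA at position -217 and TTATCT at position -103, and the window of Mrc1 held none of the motifs. These matches describe letters in the sequence and not bound sites. The type 2 cytokine genes lie together on chromosome 11 in GRCm38, Il4 at chr11:53602982-53618669 and Il13 at chr11:53631324-53634702, both on the minus strand, and Il5 at chr11:53720794-53725106 on the plus strand. Il4ra lies at chr7:125552120-125579474 (plus), Areg at chr5:91139599-91148432 (plus) and Arg1 at chr10:24915221-24927484 (minus).

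Quality limits on cells kept 66339 barcodes of 89637 in Lin- and 59935 of 67122 in Lin+ libraries. The Lin- library of C57 RT replicate 2 stood apart, with 6171 of 22072 barcodes kept (27.96%) against 57.7% to 96.2% in the others. Kept cells had a median of 1204 to 4358 unique molecular identifiers (UMIs) per cell and between 7857160 and 41979800 UMIs per library. Cells were clustered within each fraction without the 10 genes and without the pathway genes named further on, and clusters were called by the cell type whose markers they held, with the suffix -like. All levels are in CPM, the UMIs of a gene scaled to a common total of UMIs for each class of cells in each library, so a level is a share of the RNA of that class. The Lin+ and Lin- libraries of CL replicate 2 had 1098 cell barcodes in common, 17.1% of the smaller library, against at most 2.04% in any other pair of the 20 libraries. Among its Lin- cells these barcodes made up 50.8% of the Cthrc1 fibroblast-like and 60.9% of the proliferating-like cells, but 0 of 63 ILC2-like cells, and among its Lin+ cells 0.686% of the MAC2-like cells. The targeted gene Adrb1 stood in ASC1-like cells at 5.55 (RT) and 3.90 (COLD) CPM in WT and at 0.583 and 0.495 CPM in KO, from 12.98, 49.1, 0.999 and 3.97 UMIs, so it was lower in KO as labelled. The labels do not say that replicates came on separate days, and p-values measure the spread between these pools of mice.

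Each gene had its own set of source cells, given here as shares of UMIs pooled over all 10 libraries of a fraction and so over treatments. In the Lin- fraction, ILC2-like cells were 1.39% of the cells but held 85.6% of Il5, 74.1% of Il13, 71.6% of Areg, 59.7% of Arg1 and 44.2% of Il1rl1 UMIs. In the Lin+ fraction, basophil-like cells were 0.287% of the cells and held 48.4% of Il4 and 55.9% of Il13 UMIs. MAC2-like cells, the macrophages marked by Folr2, F13a1, Cbr2, Pf4 and Gas6, were 8.85% of Lin+ cells and held 55.8% of Mrc1, 28.9% of Il1rl1 and 24.0% of Retnla UMIs. Pooled over libraries, 33.5% of Retnla UMIs were in the cDC2 or moDC-like class, dendritic cells of the conventional type 2 or monocyte-derived kind, which these markers did not separate, while MAC2-like cells held more of them in 4 of 10 libraries. Pooled shares hide differences between treatments. Of the C57 Lin+ Il1rl1 UMIs, MAC2-like cells held 44.5% at RT, 7.93% in the cold and 30.7% with CL. In the cold cDC2 or moDC-like cells (30.8%) and T-like cells (25.2%) held more of these Il1rl1 UMIs than MAC2-like cells. Il4ra was spread more widely, with no class over 27.5% of its Lin- UMIs or 14.5% of its Lin+ UMIs. The heatmap of mean levels covers the named classes with at least 20 cells in at least 8 of the 10 libraries, which leaves out basophil-like cells.

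**Figure D1:**
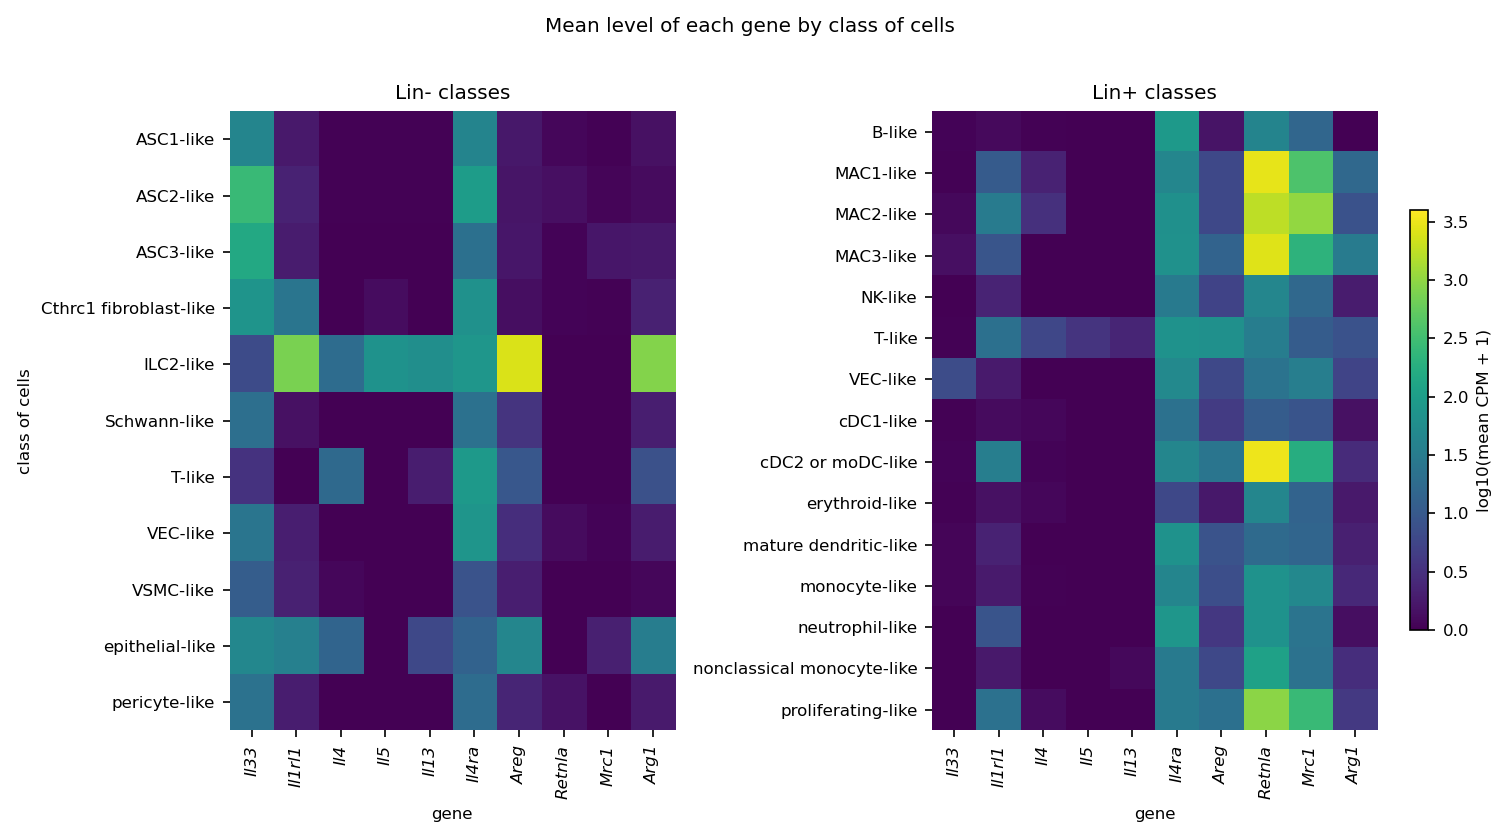
Mean level of each of the 10 genes, as log10(mean CPM + 1), in named classes of Lin- (left) and Lin+ (right) cells. Only classes with at least 20 cells in at least 8 libraries are drawn, with means over those libraries. Il33 is high in stromal classes, Il5, Areg, Arg1 and Il1rl1 in ILC2-like cells, and Mrc1 and Retnla in macrophage and dendritic classes.

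Il33 in stromal cells came first in the signalling order. The 3 kinds of ASC were named by their markers: ASC1-like cells (Col5a3, Cxcl14, Bmper), ASC2-like cells (Pi16, Dpp4, Sema3c) and ASC3-like cells (Gdf10, Clec11a, Fbln1). Some markers overlapped over libraries. Cxcl14 ranged over 781 to 4409 CPM in ASC1-like and 99.9 to 952 CPM in ASC3-like cells, and Bmper over 149 to 405 and 11.9 to 183 CPM. ASC3-like cells also held Pi16 at 133 to 1199 CPM, below 3376 to 10081 CPM in ASC2-like cells. Gdf10 was 429 to 1409 CPM in ASC3-like cells and at most 70.1 CPM in the other kinds. At RT the ASC2-like cells were the main source and held 77.7% of the Il33 UMIs of C57 Lin- cells, whereas in the cold they held 29.6% and the ASC1-like cells 40.6%, up from 5.09%. The level in ASC2-like cells was 247 and 286 CPM at RT, 239.7 and 139.8 CPM in the cold and 197 and 189 CPM with CL. In the Adrb1 line it was 505 (RT) and 216 (COLD) CPM in WT and 422 and 304 CPM in KO. Treated samples were below the RT samples of the same line, and the C57 differences were small beside the spread, with a log2 fold change of -0.44 ± 0.28 (SE, edgeR adjusted p = 0.696, 0.715% of genes called) in the cold and -0.25 ± 0.28 (adjusted p = 0.853, 0% of genes called) with CL. Over both lines it was -0.63 ± 0.25 (adjusted p = 0.146, 2.71% of genes called).

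In ASC1-like cells the Il33 level went the other way. It was 7.15 and 19 CPM at RT, 67.7 and 36.2 CPM in the cold and 104 and 16.9 CPM with CL, from 55.2 and 41.8 UMIs at RT. The cold samples lay above both RT samples, while 1 CL sample lay far above and the other between them. WT went from 13.6 to 129 CPM and KO from 6.83 to 21.4 CPM with cold. In the C57 libraries alone the log2 fold change of +2.31 ± 0.67 in the cold did not pass the threshold (adjusted p = 0.0546, 12.5% of genes called), nor did +2.47 ± 0.69 with CL (adjusted p = 0.148, 1.33% of genes called). With the replicate number, which marks the experiment in the study's methods, as a block, both passed it (+2.36 ± 0.51, adjusted p = 0.0118, and +2.34 ± 0.53, adjusted p = 0.0466). Over both lines (4 against 4 libraries, with line as a term) Il33 rose by 2.45 ± 0.31 on the log2 scale in ASC1-like cells (adjusted p = 0.000803), where 26.6% of all genes tested were called.

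ASC3-like cells held Il33 at 31.8 and 64.6 CPM at RT, 139 and 100.0 CPM in the cold and 288 and 81.8 CPM with CL, with WT at 91.3 (RT) and 350.3 (COLD) and KO at 112 and 217. All treated samples lay above the RT samples of their line. The C57 fold changes of +1.43 ± 0.46 (cold, adjusted p = 0.468, 0.195% of genes called) and +2.15 ± 0.46 (CL, adjusted p = 0.210, 0.0684% of genes called; with the replicate block +2.02, adjusted p = 0.0463) were not past the threshold without the block, and the rise of 1.40 ± 0.21 over both lines was (adjusted p = 0.00715, 3.51% of genes called). Without the WT RT library it was +1.24 and no longer past it. The class's own ASC3 markers summed to 2540 to 3968 CPM at RT, 2374 to 3493 CPM in the cold (3 of 4 higher) and 1063 to 2241 CPM with CL. Its ASC2 markers summed to 844 to 1795, 1404 to 1855 and 1366 to 1450 CPM in the same order. The part of these markers in the Il33 result was not tested. The test of the response itself, with library as a block, found that the cold response of Il33 in ASC1-like cells exceeded that in ASC2-like cells by 2.77 ± 0.57 on the log2 scale (adjusted p = 0.00732, 9.18% of genes called). The response in ASC2-like cells was below that in ASC3-like cells by 1.95 in the cold (log2 difference -1.95, adjusted p = 0.0281, 0.253% of genes called) and by 2.21 with CL (-2.21 ± 0.38, adjusted p = 0.00861, 0.208% of genes called). ASC1-like and ASC3-like cells differed by +0.81 ± 0.30 in the cold (adjusted p = 0.124, 7% of genes called), and the CL difference between ASC1-like and ASC2-like cells was +2.46 ± 0.60 (adjusted p = 0.0649, 1.14% of genes called). With the replicate number as a further term both were past the threshold (+0.84 ± 0.25, adjusted p = 0.0181, and +2.62 ± 0.50, adjusted p = 0.00659). The ASC1-like against ASC2-like call was lost without RT replicate 1 (+2.09). Both ASC2-like against ASC3-like calls were lost with DESeq2 and without either RT replicate (-1.54 and -2.25 in the cold, -1.81 and -2.54 with CL), and the cold one also without either COLD replicate (-2.06 and -1.82), without the shared barcodes (-1.94) and without likely doublets (-1.88).

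**Figure D2:**
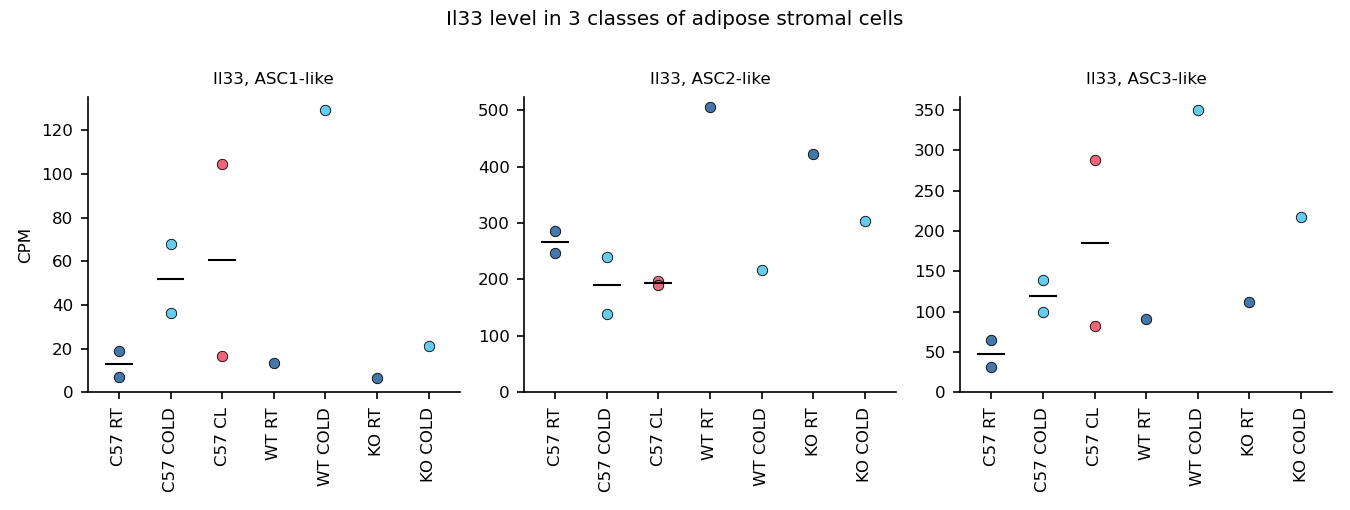
Il33 level in CPM (linear axis from 0) in ASC1-like, ASC2-like and ASC3-like cells of each Lin- library, with points for libraries grouped by line and treatment and bars for the mean of the 2 C57 libraries. ASC2-like cells are highest in the RT groups, and cold samples lie above the RT samples of their line in ASC1-like and ASC3-like cells.

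The makeup of the ASC1-like class moved with treatment. Its cluster led by Cxcl9, Cxcl10, Ccl2 and Saa3, inflammatory genes, made up 2.78% and 4.83% of the class in C57 RT samples, 72.9% and 79.4% in COLD samples and 36.8% and 26.9% in CL samples, and went from 34.1% to 54.1% in WT and from 38.0% to 55.9% in KO with cold. Within that cluster Il33 was 34.6 and 6.86 CPM at RT (from 41 and 68 cells), 80.1 and 39.6 CPM in the cold and 165 and 29.1 CPM with CL. Within the cluster that held 82.4% and 86.5% of the class in C57 at RT it was 5.84 and 20.4 CPM at RT, 12.7 and 19.1 CPM in the cold and 31.4 and 9.68 CPM with CL. So the RT and cold ranges overlapped within this second cluster. The third, led by Mmp3, Gsn, C4b and Penk, made up 14.8% and 8.66% of the class in RT, 8.51% and 9.14% in COLD and 23.9% and 27.7% in CL samples of C57, and held Il33 at 8.70 and 12.5, 52.1 and 14.8 and 107 and 12.7 CPM in the same order. Neither the third cluster nor the one led by Cxcl9 had an ASC1 marker among its top 10 genes. All 4 ASC1 markers were raised in both over the clusters outside the class. Markers of immune cells in ASC1-like cells summed to 0.563 to 2.74 CPM at RT and 5.41 to 7.49 CPM in the cold over both lines, while the markers of ASC2-like cells summed to 228 to 1549 and 331 to 391 CPM. The class's own ASC1 markers summed to 3745 to 7870 CPM at RT, 2613 to 3271 CPM in the cold (1 of 4 higher) and 3156 to 3545 CPM with CL. The part of the cluster makeup and of these markers in the Il33 result was not tested.

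Il33 reached beyond the 3 ASC classes. A small cluster of 157 cells led by Sfrp5, Lypd2, Slc2a1, Msln and Cldn1, left unnamed, had Il33 UMIs in 60.5% of its cells and a pooled level of 646 CPM. Its level was 435, 517 and 906 CPM in the 3 libraries with at least 20 of its cells. A cluster led by Thbs4, Cilp and Myoc stood at 137 ± 59.5 CPM (SD, n = 10), beside 275 ± 112 CPM in ASC2-like and 148 ± 104 CPM in ASC3-like cells. Vascular endothelial cell (VEC)-like cells held 13.7 and 15.7 CPM at RT, 21.4 and 22.3 CPM in the cold and 6.39 and 23.4 CPM with CL. The cold samples lay just above RT and the CL samples on either side of it. ASC2-like cells lay above ASC3-like cells in 8 of 10 libraries, but the exact sign-flip test did not separate them (adjusted p over 42 comparisons = 0.0889), and ASC3-like cells lay above Cthrc1 fibroblast-like cells in 7 of 8 (adjusted p = 0.0656). After each cell was thinned to 1000 UMIs, an Il33 UMI was seen in 19.9% of 9665 ASC2-like cells, 10.7% of 6173 ASC3-like cells and 3.61% of 14885 ASC1-like cells, against 0.898% of vascular smooth muscle cell (VSMC)-like cells, which should lack it. Unthinned shares were 36.6%, 21.2%, 9.09% and 1.80%, at medians of 2479, 2587, 3991 and 2148 UMIs per cell. The whole Lin- fraction stood at 60.5 and 89 CPM at RT, 53.4 and 45.2 CPM in the cold and 77.99 and 89.7 CPM with CL (log2 fold change -0.42 in the cold, adjusted p = 0.258, 0.013% of genes called), and its cold samples lay below RT.

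The IL-33 receptor gene Il1rl1 was low in stromal cells except for the Cthrc1 fibroblast-like class, a wound-type fibroblast. There it was 0 and 0 CPM at RT, 0 and 5.16 CPM in the cold and 76.2 and 22.9 CPM with CL, the last from 1139 and 366 cells. The C57 RT values rest on 2 and 37 cells. In the Adrb1 line WT held 17.2 CPM (RT, 174 cells) and 57.2 CPM (COLD, 130 cells), and KO 0 CPM (RT, 33 cells) and 13 CPM (COLD, 72 cells). Lin- proliferating-like cells of the CL libraries held 110.2 and 11.5 CPM, with 0.363 and 0 CPM in the cold. These classes had too few cells in C57 RT libraries for a fit. With CL they held 39.6% and 26.5% of the Lin- Il1rl1 UMIs, and the ILC2-like share of those UMIs was 77.6% at RT, 66.3% in the cold and 12.4% with CL. CL replicate 2, which had the lower value in both classes, is the library with shared barcodes.

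Pooled over libraries and treatments, ILC2-like cells held most of the Lin- Il5, Il13 and Areg. The 923 cells held Gata3, the lineage factor of type 2 lymphocytes, at 942 to 1509 CPM, and Il7r at 717 to 1489 CPM. Cd5 of T cells and Ncr1 of natural killer cells were at 0, and Cd3e had a median of 0 CPM, while Cd3g stood at 90 to 227 CPM and Trbc2 at 692 to 1089 CPM, so these T cell genes were not near 0. Mcpt8 of basophils was at 0, and the other basophil markers had medians of 0 CPM. Of the natural killer markers Nkg7 stood at 29.4 to 133 CPM, and the rest had medians of 0 CPM. Of the mast cell markers Kit stood at 42.8 to 229 CPM, Cpa3 and Cma1 reached 108 and 96.2 CPM, Tpsb2 reached 13.9 CPM and Mcpt4 had a median of 0 CPM. After thinning to 1000 UMIs, 60.6% of 617 such cells had an Areg UMI, 46.7% an Arg1 UMI and 42.3% an Il1rl1 UMI, against 0.0621%, 0.0621% and 0.0931% of ASC2-like cells. Il5, which encodes the growth factor of eosinophils, was seen in 5.02% of thinned cells, Il13 in 1.94% and Il4 in 1.30%. Without thinning the shares were 63.1% for Areg, 51.9% for Arg1, 55.0% for Il1rl1, 6.50% for Il5, 2.60% for Il13 and 1.95% for Il4.

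In ILC2-like cells Areg stood at 2443 and 2107 CPM at RT, 3650.1 and 2788 CPM in the cold and 2282 and 1501 CPM with CL, with 2540.3 (RT) and 2433 (COLD) in WT and 3263 and 2120.4 in KO. The cold samples were the higher ones in C57 and the lower ones in the Adrb1 line. Il1rl1 stood at 439 and 1121 CPM at RT, 771 and 564 CPM in the cold and 559 and 655 CPM with CL, so that the treated samples lay between the RT samples. Arg1 stood at 519.5 and 1334, 706 and 542 and 701 and 809 CPM in the same groups, again with both treatments inside the RT range. In the cold C57 fit the log2 fold changes were +0.35 ± 0.43 for Areg, -0.29 ± 0.44 for Il1rl1 and -0.64 ± 0.45 for Arg1 (adjusted p = 0.951, 0.973 and 0.924). In that fit 0% of 2186 genes were called (135 at an unadjusted p under 0.05). On simulated counts of this class edgeR recovered 21% of genes changed 2-fold and 92% of genes changed 4-fold. The changed genes were drawn only from those with higher expected counts in the smallest library, under a common dispersion. So 2-fold differences were mostly not detectable at this depth even for such genes, and these rates do not cover sparser genes such as Il5.

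The type 2 cytokines themselves were sparse. Il5 in ILC2-like cells rested on 0 to 27 UMIs per library and stood at 42.8 and 10.6 CPM at RT, 54.4 and 47.6 CPM in the cold and 113 and 118 CPM with CL. The CL samples were the highest of C57, above every RT and cold sample, but the log2 fold change of +1.82 ± 0.73 had an adjusted p of 0.990 (unadjusted p = 0.0273, 0% of genes called). Il13 was 91.2 and 31.7 CPM at RT, 21.8 and 21.2 CPM in the cold and 0 and 101 CPM with CL, and Il4 5.34 and 62.4, 32.7 and 21.2 and 0 and 33.7 CPM. For Il13 the cold samples lay below RT and the CL samples on either side of it, and for Il4 the groups overlapped. Within single cells, 508 of 923 had an Il1rl1 UMI, and of these 334 also had Areg, 280 Arg1, 39 Il5, 14 Il13 and 9 Il4. Of all 923 cells 582 had Areg, 479 Arg1, 60 Il5, 24 Il13 and 18 Il4. Of the 60 cells with Il5 and the 24 with Il13, 9 had both, and none of the 18 cells with Il4 had Il5 or Il13. Whether these genes met in the same cells more or less often than their own shares give was not tested. Retnla and Mrc1 were seen in 0 of the 923 cells.

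**Figure D3:**
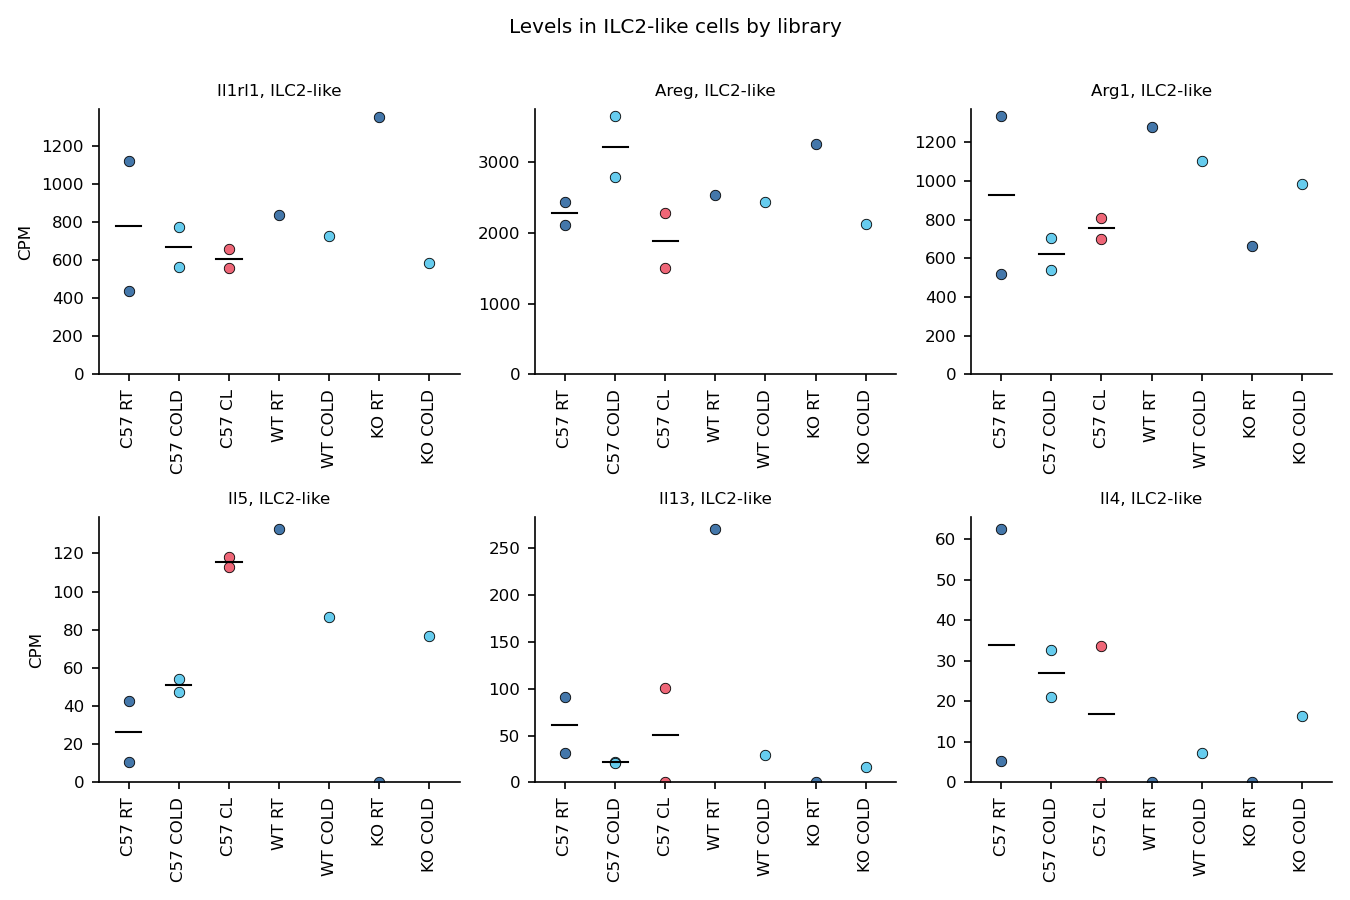
Levels in CPM of Il1rl1, Areg, Arg1, Il5, Il13 and Il4 in ILC2-like cells of each Lin- library, with points for libraries grouped by line and treatment and bars for the mean of the 2 C57 libraries. Treated and RT samples overlap for Il1rl1, Arg1 and Il4, and Il5 is highest among C57 samples with CL.

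Of C57 Lin- cells, ILC2-like cells were 1.36% and 1.59% in RT samples, 1.20% and 2.11% in COLD samples and 0.512% and 0.981% in CL samples, and went from 1.91% to 1.63% in WT and from 0.989% to 2.97% in KO with cold. Over both lines the share was 1.46% ± 0.388 at RT and 1.98% ± 0.762 in the cold (SD, n = 4), a difference of 0.516 percentage points that the exact permutation test did not separate (two-sided p = 0.286). It was 0.184 without KO COLD and 0.776 without COLD replicate 1, and as a share of immune-like Lin- cells the difference was -4.04 points. With CL it was 0.746% ± 0.332 against 1.47% ± 0.164 (SD, n = 2), and both CL samples lay below both RT samples, but 2 against 2 libraries cannot reach a p below 0.3333 in an exact permutation test. As a share of immune-like Lin- cells the groups overlapped, with 22.7% and 42.3% in CL samples and 43.4% and 36.0% in RT samples. Bead depletion sets which cells reach this fraction, and the share also falls when other Lin- cells become more numerous.

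Il4 marked basophil-like cells in both fractions. The 172 Lin+ basophil-like cells had a pooled Il4 level of 389 CPM and the 36 Lin- ones 651 CPM, and 28.6% of 140 thinned Lin+ cells held an Il4 UMI against 0.0136% of B-like cells. By library the Lin+ level was 170.2 and 396 CPM at RT, 1840.2 and 309 CPM in the cold and 0 and 801 CPM with CL, from 25 and 28, 11 and 19 and 11 and 22 cells. These cell numbers were too small for a fit, and the groups overlapped. Il13 was seen in 8.57% of thinned basophil-like cells. Of 61 cells with Il4 and 20 with Il13, 9 had both, while Il5 was seen in 0 of the 172 cells, Areg in 1 and Arg1 in 1.

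Il1rl1 also marked other receptor-bearing cells. The 31 mast-like cells had a pooled level of 607 CPM and the Lin- basophil-like cells 247 CPM. T-like cells of the Lin+ fraction held Il1rl1 at 32 and 14.3 CPM at RT, 39.6 and 16.3 CPM in the cold and 25.8 and 6.02 CPM with CL. These groups overlapped (log2 fold change in the cold -0.01, adjusted p = 0.998, 0.552% of genes called). The class joined clusters with 7 of 12 and 3 of 12 ILC2 markers raised. Of its 135 cells with Il1rl1, 60 also had Areg, 27 Arg1 and 9 Il5, beside 157, 49 and 14 among all 6821. The part of ILC2-like cells in this class was not tested. The order of levels took only classes with at least 20 cells in at least 8 libraries, so mast-like and Lin- basophil-like cells were not compared. Among the Lin- classes compared, ILC2-like cells lay above the next, the epithelial-like cells, in 10 of 10 libraries for Il1rl1 (means 760 and 35.9 CPM), Areg (2513 and 44.5 CPM) and Arg1 (864 and 32.5 CPM), each with an exact sign-flip p of 0.00195 (adjusted p = 0.0273).

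The receptor for IL-4 and IL-13, Il4ra, was found in most classes and its order gave no clear leader. In the Lin- fraction ASC2-like (mean 95.3 CPM), T-like (87.4 CPM), ILC2-like (77.5 CPM) and VEC-like (73.9 CPM) cells stood next to each other, and no neighbouring pair differed past the threshold. The same held for B-like (87.8 CPM), neutrophil-like (76.5 CPM), T-like (68.5 CPM) and mature dendritic-like (68.1 CPM) cells of the Lin+ fraction. In ASC1-like cells it was 36.9 and 48.97 CPM at RT, 22.7 and 20.2 CPM in the cold and 35.5 and 27.5 CPM with CL, and it went from 70.98 to 49.9 CPM in WT and from 59.2 to 42.2 CPM in KO with cold. Cold samples lay below the RT samples of their line throughout. Il4ra fell by 0.86 ± 0.16 on the log2 scale in the cold (adjusted p = 0.0113) and by 0.64 ± 0.16 over both lines (adjusted p = 0.0162). The C57 call was lost without COLD replicate 1 (-0.90), COLD replicate 2 (-0.82) or RT replicate 1 (-0.72), and that over both lines without COLD replicate 1 (-0.61) or 2 (-0.58). In ASC1-like cells of every line the cold sample thus had less Il4ra and more Il33 than RT.

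In ASC2-like cells Il4ra was 32.3 and 26.9 CPM in cold C57 mice against 42.4 and 43.8 CPM at RT, but from RT to cold 279.6 and 74.04 CPM in WT and 258 and 94.8 CPM in KO. The high values were the RT libraries of kit version 3, and the fold change was -0.50 in C57 (adjusted p = 0.581) and -1.11 ± 0.26 over both lines (adjusted p = 0.0511). In MAC2-like cells Il4ra stood at 47.7 and 44.2 CPM at RT, 43.2 and 42.9 CPM in the cold and 99.3 and 45.4 CPM with CL, with the cold samples just below RT and 1 CL sample well above it.

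Macrophages fell into 3 classes, MAC1-like (Gpnmb, Trem2, Spp1), MAC2-like and MAC3-like (Clec4d, Clec4e, Msr1), here also summed as macrophage-like (12420 cells). MAC2-like cells were 95.8% and 95.5% of macrophages in RT samples, 15.01% and 10.6% in COLD samples and 64.6% and 76.5% in CL samples, and fell from 56.4% to 27.03% in WT and from 69.1% to 25.7% in KO, so the sum over macrophages also holds this shift in makeup. The fits of MAC2-like cells alone are therefore given beside it.

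Mrc1, the mannose receptor, was in MAC2-like cells at 1160.4 and 773 CPM at RT, 589 and 467 CPM in the cold and 1019 and 688 CPM with CL, and went from 2163 to 434 CPM in WT and from 2415 to 561 CPM in KO with cold. Every cold sample lay below the RT samples, and the CL samples overlapped RT. It fell in the cold by 0.97 ± 0.26 on the log2 scale (adjusted p = 0.0339, 12% of genes called), and the CL difference was -0.27 (adjusted p = 0.573, 4.25% of genes called). The cold call was lost without COLD replicate 1 (-1.12), COLD replicate 2 (-0.81) or RT replicate 1 (-0.65) and with a 5% limit on mitochondrial UMIs (-0.93). Over all macrophage-like cells the values were 1089.9 and 728 CPM at RT, 204 and 140.0 CPM in the cold and 744 and 563 CPM with CL, a fall by 2.35 ± 0.27 in the cold (adjusted p = 0.000301, 35.8% of genes called). MAC2-like cells lay above MAC1-like cells in 9 of 9 libraries (means 1027 and 391 CPM, adjusted exact sign-flip p = 0.0410).

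In cDC2 or moDC-like cells Mrc1 was 192 and 154 CPM at RT, 71.6 and 63.5 CPM in the cold and 139 and 167 CPM with CL, and it fell by 1.58 ± 0.23 in the cold (adjusted p = 0.00736, 9.96% of genes called). WT went from 382 to 61.7 CPM and KO from 443 to 44.8 CPM. Cold samples were below all RT samples in this class too, and the C57 call was lost without COLD replicate 1 (-1.65) or 2 (-1.53). The fall over the macrophage-like sum, which holds the shift from MAC2-like to other macrophages, was larger than that in all dendritic-like cells by 0.93 on the log2 scale (difference -0.93, adjusted p = 0.0124, 18.3% of genes called), a call lost without COLD replicate 2 (-0.75) or RT replicate 1 (-0.63). In MAC2-like cells alone the order was the opposite, with -0.97 ± 0.26 against -1.49 ± 0.18 in dendritic-like cells, and that difference was not tested. After thinning, 54.3% of MAC2-like cells had an Mrc1 UMI against 1.30% of B-like cells. Outside the myeloid cells, lymphatic endothelial-like cells held 50.2% of the Lin- Mrc1 UMIs, at 66.6 CPM pooled.

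Retnla was the gene with the widest range. In MAC2-like cells it stood at 2175 and 696 CPM at RT, 357 and 369 CPM in the cold and 296 and 564 CPM with CL, and it went from 6928 to 496 CPM in WT and from 4835 to 748 CPM in KO with cold. The treated C57 samples all lay below both RT samples, which differed from each other by more than 3-fold. The fall in the cold of 2.08 ± 0.48 on the log2 scale was called (adjusted p = 0.0200), and the CL difference of -1.78 ± 0.47 was not (adjusted p = 0.0549). Over macrophage-like cells the values were 2032 and 687 CPM at RT, 74.4 and 108 CPM in the cold and 173 and 669 CPM with CL, with a fall by 3.85 ± 0.69 in the cold (adjusted p = 0.00255) and -1.64 with CL (adjusted p = 0.134). In the Adrb1 line macrophage-like cells of WT went from 11307 to 168 CPM and those of KO from 4089.7 to 199.6 CPM. Of their Retnla UMIs at RT, MAC2-like cells held 5800 of 16977 in WT, 4915 of 6254 in KO and 4653 of 4655 and 1829 of 1918 in C57. Mean levels over libraries with at least 20 cells were 2935 CPM in MAC1-like, 2616 CPM in MAC3-like and 1746 CPM in MAC2-like cells. The order of these means did not hold by library. MAC1-like cells lay above MAC3-like cells in 1 of 8 libraries (mean log2 difference -2.17), and MAC3-like cells above MAC2-like cells in 4 of 9. The cDC2 or moDC-like cells lay above MAC1-like cells in 8 of 9.

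In cDC2 or moDC-like cells Retnla was 3434 and 6669.9 CPM at RT, 252 and 591 CPM in the cold and 282 and 3118 CPM with CL, and fell by 3.80 ± 1.00 in the cold (adjusted p = 0.0457). WT went from 7109 to 541 CPM and KO from 10164 to 484 CPM. All cold samples lay far below the RT samples, whereas the CL samples were far apart from each other. The C57 call in MAC2-like cells was lost with DESeq2 (-2.07) and without COLD replicate 1 (-2.03), COLD replicate 2 (-2.10) or RT replicate 1 (-1.04). That in cDC2 or moDC-like cells was lost with DESeq2 (-3.80), without likely doublets (-3.71) and without any of COLD replicates 1 (-3.29) and 2 (-4.56) and RT replicates 1 (-4.18) and 2 (-3.26). Over both lines Retnla fell by 2.53 ± 0.42 in MAC2-like (adjusted p = 0.0054, 30.6% of genes called) and by 3.83 ± 0.38 in cDC2 or moDC-like cells (adjusted p = 0.000572, 31.3% of genes called).

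Few cells carried most Retnla. Cells with at least 10 Retnla UMIs were 11.2% and 3.26% of MAC2-like cells in RT samples, 2.70% and 3.30% in COLD samples and 2.38% and 3.95% in CL samples. Among cDC2 or moDC-like cells they were 18.9% and 26.3%, 1.83% and 2.44%, and 3.23% and 19.3% in the same order. In the Adrb1 line they went from 28.4% to 3.54% (WT) and from 26.8% to 5.56% (KO) of MAC2-like cells and from 41.2% to 4.79% (WT) and from 43.6% to 7.83% (KO) of cDC2 or moDC-like cells with cold. In MAC2-like cells C57 RT replicate 2 lay between the C57 cold samples, and every other RT sample in both classes lay above the cold samples of its line. These cells held 78.3% to 99.7% of the Retnla UMIs of MAC2-like cells and 78.2% to 99.9% of those of cDC2 or moDC-like cells, with 645 UMIs in the highest single cell. Such cells were 0.0343% of B-like cells, in which Retnla was nevertheless called down in the cold. There it stood at 10.3 and 10.2 CPM in the cold against 113 and 63.2 CPM at RT (log2 fold change -3.22 ± 0.50, adjusted p = 0.00926, 0.359% of genes called), and in natural killer (NK)-like cells at 4.40 and 3.51 against 134 and 112 CPM (-5.04 ± 0.58, adjusted p = 0.000335, 2.8% of genes called). Retnla in nonclassical monocyte-like cells was 2.93 and 2.88 against 206 and 39.1 CPM (-5.22 ± 1.20, adjusted p = 0.0158, 3.06% of genes called), a call lost with DESeq2 (-5.35) and without likely doublets (-4.01), while the B-like call was lost without COLD replicate 1 (-3.22) or 2 (-3.21). A Retnla UMI was seen in 5.42% of thinned B-like cells, beside 10.5% of MAC2-like and 9.06% of cDC2 or moDC-like cells. In NK-like cells 1 cell in each C57 RT library, with 18 and 50 UMIs, held 40% and 64.1% of the 45 and 78 Retnla UMIs of the class. The class held 4 and 2 Retnla UMIs in the cold and 3 and 25 with CL. There Retnla passed the filter on low counts mainly through RT, so the NK-like call is no support of its own. The part of free RNA, which the B-like share also holds, in these changes was not tested.

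Il1rl1 was also called down in macrophages and dendritic cells. It stood in MAC2-like cells at 64.4 and 34.4 CPM at RT, 6.47 and 3.72 CPM in the cold and 6.73 and 20.1 CPM with CL, from 137 and 89, 13.96 and 3.99 and 37.9 and 62.8 UMIs. WT went from 73.3 to 4.35 CPM and KO from 73.4 to 13.8 CPM with cold. Treated samples lay below all RT samples in both lines. It fell by 3.25 ± 0.60 in the cold (adjusted p = 0.00824) and by 2.00 ± 0.47 with CL (adjusted p = 0.0364). The cold call was lost without COLD replicate 1 (-3.77), COLD replicate 2 (-3.00) or RT replicate 1 (-2.74), and the CL call without CL replicate 1 (-1.23), RT replicate 1 (-1.48), RT replicate 2 (-2.39) or COLD replicate 2 (-1.99) and with the 5% mitochondrial limit (-1.99). Over macrophage-like cells it was 60.6 and 32.3 CPM at RT, 1.69 and 1.13 CPM in the cold and 4.87 and 16 CPM with CL, and it fell by 4.92 ± 0.58 in the cold (adjusted p = 0.00034) and by 2.25 ± 0.51 with CL (adjusted p = 0.0341, 7.16% of genes called). The cold call there passed under every alternative run, whereas the CL call was lost without CL replicate 1 (-1.44), RT replicate 1 (-1.72) or RT replicate 2 (-2.62) and with the 5% mitochondrial limit (-2.25).

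In cDC2 or moDC-like cells Il1rl1 was 52.9 and 36.3 CPM at RT, 5.54 and 5.91 CPM in the cold and 15.8 and 19.2 CPM with CL. It fell by 3.14 ± 0.30 in the cold (adjusted p = 0.00161), and the CL difference of -1.48 ± 0.30 was not past the threshold (adjusted p = 0.0899, 0.261% of genes called). The cold samples were the lowest, the CL samples lay between, and no C57 groups overlapped. The cold fall over the macrophage-like sum, with its shift in makeup, exceeded that in dendritic-like cells by 2.11 (log2 difference -2.11, adjusted p = 0.00318). In MAC2-like cells alone it was -3.25 ± 0.60 beside -2.87 ± 0.26 in dendritic-like cells, a difference that was not tested. Over both lines the falls were by 3.12 ± 0.35 in MAC2-like (adjusted p = 0.00129) and by 3.50 ± 0.25 in cDC2 or moDC-like cells (adjusted p = 9.68e-05). An Il1rl1 UMI was seen in 2.22% of thinned MAC2-like and 1.51% of thinned cDC2 or moDC-like cells, against 0.0271% of B-like cells.

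**Figure D4:**
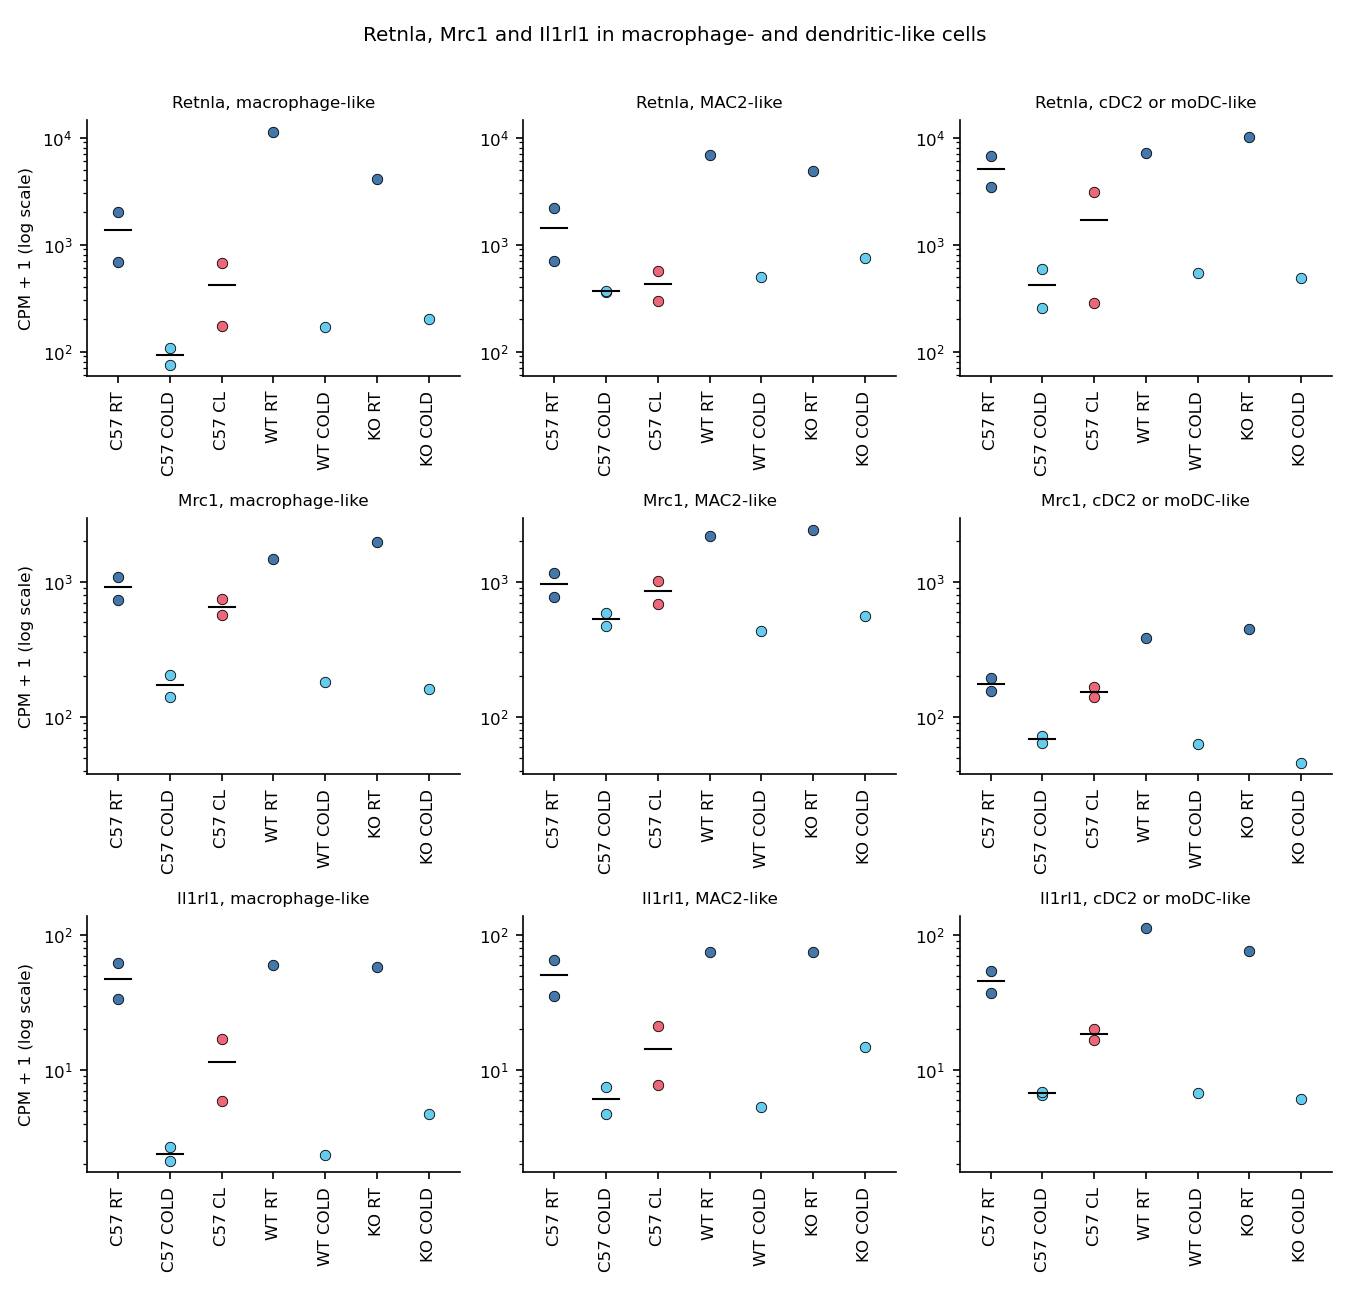
Levels of Retnla, Mrc1 and Il1rl1, as CPM + 1 on a log axis, in macrophage-like, MAC2-like and cDC2 or moDC-like cells of each Lin+ library, with points for libraries grouped by line and treatment and bars for the mean of the 2 C57 libraries. The cold samples lie below the RT samples of their line in all 9 panels, and the CL samples overlap the RT samples for Mrc1 in MAC2-like cells.

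Other markers moved with these falls. Within MAC2-like cells the markers of MAC1-like cells summed to 94.4 to 175 CPM at RT, 506 to 1706 CPM in the cold and 606 to 1454 CPM with CL over both lines (4 of 4 markers higher in the cold), and those of MAC3-like cells to 518 to 637, 962 to 1704 and 667 to 985 CPM (6 of 6). Their own markers summed to 4637 to 8050 CPM at RT and 4413 to 6180 CPM in the cold (3 of 5 higher), and B cell markers to 402 to 587 and 117 to 268 CPM (0 of 5). In cDC2 or moDC-like cells the MAC3 markers summed to 134 to 241 CPM at RT and 587 to 870 CPM in the cold (6 of 6 higher) and the MAC1 markers to 12.6 to 179 and 193 to 945 CPM (4 of 4). The sum of the MAC2 markers was 232 to 369 CPM at RT and 76.2 to 132 CPM in the cold, although 3 of 5 had a higher mean in the cold, and their own markers summed to 1553 to 1894 and 1502 to 1662 CPM (2 of 4 higher). In the same class monocyte markers summed to 1050 to 2255 CPM at RT and 1672 to 3322 CPM in the cold (3 of 5 higher). Its macrophage markers summed to 697 to 1745 CPM at RT, 889 to 2644 CPM in the cold (3 of 7 higher) and 2385 to 3172 CPM with CL. Monocyte markers in MAC2-like cells summed to 380 to 1019 CPM at RT and 636 to 1964 CPM in the cold (4 of 5 higher). The part of these markers in the results was not tested.

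Arg1, a marker of alternative activation, was nearly absent from macrophages at RT. It was 0 and 0.363 CPM at RT, 2.20 and 4.81 CPM in the cold and 31.5 and 8.72 CPM with CL, and 0 (RT) and 52.2 (COLD) CPM in WT and 0.654 and 16.9 CPM in KO. All treated samples lay above all RT samples, which held 0 and 1 UMI in C57. Arg1 could pass the filter on low counts only through the treated samples, so its call with CL (fitted log2 fold change +6.57 ± 1.12, adjusted p = 0.0134) is no support of its own, and the fitted value depends on the prior count. From the summed UMIs (360 with CL against 1 at RT) the ratio of levels was 125 with a counting interval of 22.2 to 4932. In the cold it was 86 UMIs against 1, a ratio of 16.4 (2.86 to 654), and the fit gave +4.04 ± 1.48 (adjusted p = 0.0568; with the replicate number as a block, adjusted p = 0.0476). The CL call was lost without CL replicate 1 (+5.41), RT replicate 1 (+5.76) or RT replicate 2 (+10.45). In MAC2-like cells alone Arg1 was too sparse for a fit. The level was high in MAC3-like cells with CL (163 and 33.1 CPM) and in MAC1-like cells of WT COLD (56.2 CPM).

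Il4 was low in macrophages. Il4 in macrophage-like cells was called down in the cold (log2 fold change -2.92 ± 0.70, adjusted p = 0.0105) at 0.252 and 0.472 CPM in the cold against 3.94 and 1.81 CPM at RT, which is 9 against 14 UMIs in all and a ratio of 0.122 with a counting interval of 0.0467 to 0.303. The call was lost without COLD replicate 1 (-2.47), COLD replicate 2 (-3.38) or RT replicate 1 (-2.29). In WT and KO the values were at most 0.664 CPM. Areg in Lin+ T-like cells was 117 and 21.4 CPM at RT, 195 and 30.97 CPM in the cold and 132 and 32.6 CPM with CL. Its samples differed within each group by more than between groups (cold log2 fold change +0.41 ± 0.77, adjusted p = 0.883). Within each replicate number the treated samples lay above RT, and with that number as a block the edgeR cold value was +0.36 ± 0.24 (adjusted p = 0.565). Of the 157 T-like cells with Areg, 60 also had Il1rl1 and 21 Arg1, and the class held raised ILC2 markers, as given above.

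Counted over 24 classes of C57 cells, some of which overlap (macrophage-like and dendritic-like cells hold their subclasses), 17 of 70 tested pairs of a gene and a class were called in the cold, 0 up and 17 down, against 6.17% of all gene and class pairs. The 17 include Retnla in NK-like cells (4 and 2 UMIs in the cold) and Il4 in macrophage-like cells (9 UMIs in the cold in all). With CL 3 of 70 were called, 1 up (Arg1) and 2 down (Il1rl1), against 0.938%. Without CL replicate 1 all 3 CL calls were lost, and without CL replicate 2 the count was 19, while the cold count was 9 without either COLD replicate. Pairs at an unadjusted p under 0.05 numbered 35 and 17. Over all genes such counts ranged widely, with 5358 of 11406 in macrophage-like and 135 of 2186 in ILC2-like cells in the cold. With CL they were 3041 and 93, and the share over all pairs was not computed. Over both lines 18 of 49 pairs in 20 classes were called, 2 up (Il33 in ASC1-like and ASC3-like cells) and 16 down, against 15.7%. Il5 could be tested in ILC2-like cells and Il13 in no class, since their counts did not pass the filter elsewhere. With the replicate number as a block the counts were 25 in the cold and 6 with CL. The block also moved calls over all genes, from 1576 to 2355 of 12607 in ASC1-like cells in the cold. They went from 817 to 1106 of 11406 in macrophage-like cells with CL. In mature dendritic-like cells in the cold they went from 156 to 149 of 3088. The shares of all pairs given here are without the block. Beside Il33 and the cold value of Arg1, the block added Mrc1 up in Lin+ monocyte-like cells with CL (+1.27, adjusted p = 0.025) and Retnla down in the cold in monocyte-like (-3.31, adjusted p = 0.00623), cDC1-like (-3.01, adjusted p = 0.0428) and neutrophil-like cells (-4.49, adjusted p = 0.0333). It also added Il1rl1 (-2.58, adjusted p = 0.0193) and Mrc1 (-1.37, adjusted p = 0.0139) down in Lin+ proliferating-like cells and Mrc1 down in Lin+ VEC-like cells (-2.85, adjusted p = 0.0269) in the cold.

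A list of 37 further genes of the type 2 pathway was read from the same fits, 12 receptor and signal genes, 8 other alarmins and cytokines, 10 genes of alternative activation, and 7 chemokines and their receptors. In the cold 48 of 294 pairs were called, 16 up and 32 down, and with CL 13, 9 up and 4 down (33 with the replicate block), beside the same shares of all pairs. Those shares are without the block. In MAC2-like cells 20 of the list were tested in the cold and 2 rose and 6 fell, beside 12% of all genes called, with a median log2 fold change of -0.0880 against -0.0202 over all genes tested. In macrophage-like cells 4 rose and 9 fell of 25 (35.8% of all genes called, median -0.407 against -0.0196), in cDC2 or moDC-like cells 0 rose and 6 fell of 20 (9.96% called, median -0.387 against 0.000468), and in ASC1-like cells 3 rose and 0 fell of 15 (12.5% called, median 0.338 against 0.00662). None was called of 13 in ASC2-like, 11 in ASC3-like and 3 in ILC2-like cells, where 0.715%, 0.195% and 0% of all genes were called.

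The list's genes of alternative activation did not move as 1 group. In macrophage-like cells in the cold Cd163, the scavenger receptor of haemoglobin, fell by 4.36 ± 0.26 on the log2 scale (adjusted p = 1.88e-05), Mgl2, a lectin, by 5.09 ± 0.64 (adjusted p = 0.000449) and Clec10a by 1.62 ± 0.18 (adjusted p = 0.000271), the last 2 being near relatives between which reads could be split. Irf4 and Egr2, transcription factors induced by IL-4, fell by 2.52 ± 0.32 (adjusted p = 0.000517) and 2.55 ± 0.38 (adjusted p = 0.00107). Chil3, the secreted protein Ym1, rose by 3.67 ± 0.59 (adjusted p = 0.00151), with near-identical copies in the genome that make its counts uncertain. Chil3 was also called up in the cold outside macrophages, such as in erythroid-like (+9.15 ± 1.43, 7.7% of genes called) and nonclassical monocyte-like cells (+2.45 ± 0.41) of C57, and over both lines in T-like (+4.62 ± 0.61, 4.43% of genes called) and B-like cells (+3.72 ± 0.83, 5.34% of genes called). Of the chemokines Ccl24, a ligand that draws eosinophils, fell by 3.41 ± 0.33 (adjusted p = 0.000146), and of the alarmins Tslp fell by 3.92 ± 0.27 (adjusted p = 3.85e-05). Over both lines the fall of Cd163 was by 3.59 ± 0.38 (adjusted p = 0.000223, 51.6% of genes called), and Il10, an anti-inflammatory cytokine, rose by 3.04 ± 0.45 (adjusted p = 0.000898) and Tgm2, a transglutaminase, by 2.90 ± 0.35 (adjusted p = 0.000398). In MAC2-like cells alone the directions of Cd163 (-1.67 ± 0.22), Mgl2 (-2.82 ± 0.50), Ccl24 (-1.61 ± 0.21), Chil3 (+1.97 ± 0.55) and Il10 (+2.20 ± 0.42) were the same, each past the threshold.

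With CL, in MAC2-like cells Ccl8, a chemokine, rose by 3.32 ± 0.39 (adjusted p = 0.00148), Il10 by 2.13 ± 0.40 (adjusted p = 0.0147) and Clec10a by 0.91 ± 0.21 (adjusted p = 0.0381). Ccl8 was called up with CL in B-like (+3.59 ± 0.45, 0.235% of genes called), monocyte-like (+5.12 ± 0.72, 0.158%), nonclassical monocyte-like (+3.39 ± 0.66, 0.257%) and Lin+ proliferating-like cells (+4.57 ± 0.50, 0.593%) too. In the cold Clec10a in MAC2-like cells was at -0.15 ± 0.22 and was not called (adjusted p = 0.686). In macrophage-like cells Cd163 fell by 1.03 ± 0.22 (adjusted p = 0.029). Dendritic-like cells had lower Ccl17 (-3.95 ± 0.54, adjusted p = 0.0219, 0.906% of genes called) and Ccl22 (-1.95 ± 0.27, adjusted p = 0.0219), ligands of the receptor CCR4 on type 2 T cells, and both were also called down there in the cold (-3.75 ± 0.52, adjusted p = 0.00526, and -1.56 ± 0.26, adjusted p = 0.0106, with 12.2% of genes called). In stromal cells Il13ra1, which pairs with IL-4Rα to bind IL-13, rose in ASC1-like cells in the cold by 1.84 ± 0.27 (adjusted p = 0.00386), and by 1.73 ± 0.23 over both lines (adjusted p = 0.00102), in the class in which Il4ra fell. The cold and CL comparisons share their RT samples.

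**Figure D5:**
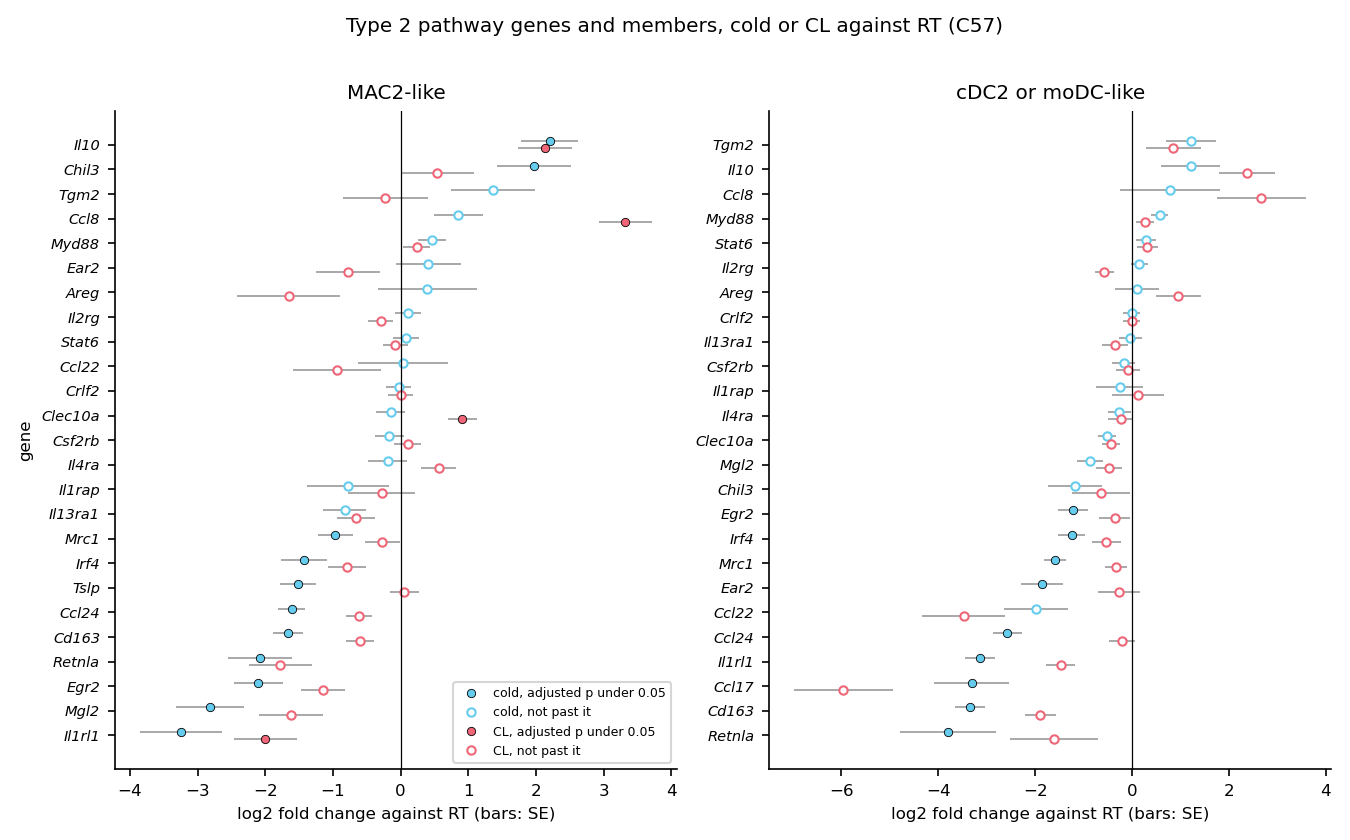
Log2 fold change against RT (bars are the SE) of the 10 genes and the pathway list in MAC2-like and in cDC2 or moDC-like cells of C57 mice, for COLD and CL, with filled points where the adjusted p is under 0.05. Ccl24, Cd163, Egr2 and Irf4 lie below 0 in the cold in both classes, and Ccl8 and Il10 lie above 0 with CL in MAC2-like cells.

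The genes whose pattern over 132 sums of 22 classes and 6 C57 experiments was most like each member are given as a description, since sums of 1 library share its depth. Of 13011 genes, those nearest to Il33 were Pcsk5, Sfrp2 and Gfpt2, each with a Pearson r of 0.91 on log2(CPM + 1). Nearest to Il1rl1 was Areg (0.76), ahead of 4932438H23Rik and Rnf128 (0.72 each). Areg was nearest to Tcrg-C1 (0.81), Tnfsf11 (0.80) and Arg1 (0.79), and Mrc1 to the complement genes C1qc (0.95), C1qa (0.95) and C1qb (0.94).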

How the data were processed

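Stromal vascular cells of iBAT were profiled in 20 droplet libraries, 10 Lin+ and 10 Lin-. The deposited values are expected counts: UMI counts that the authors made with Cell Ranger 3.0.1 (mm10, per the submitters' processing notes) and corrected with SoupX for cell-free RNA, using Fabp4 and Car3, so that they are no longer whole numbers, and low values of abundant secreted or adipocyte genes can be over- or under-corrected. The values were not scaled between libraries.

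Cells with 10% or more mitochondrial UMIs or over 15000 UMIs were left out, as were Lin+ cells with over 4000 genes and Lin- cells with under 100. Each fraction was clustered with scanpy 1.11.5 (2000 variable genes, 30 principal components corrected over 6 cohorts, 30 neighbours) and leidenalg 0.10.2 at resolution 1, without the genes and pathway list reported. A cluster was named from marker lists where at least 3 markers were raised over the clusters outside the class and its leading genes did not go against the name. The ILC2-like name also asked for Cd3e, Cd3d and Cd3g near 0, which Cd3g at 90 to 227 CPM did not meet. The members, lists and markers were chosen with earlier results of these data known. Doublets were kept, and an alternative dropped the top 6% of Scrublet scores.

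Counts were summed per library and class (at least 20 cells in every library of a fit), rounded to whole numbers and fitted with edgeR 4.0.16 in R 4.3.3 (TMM, filterByExpr, quasi-likelihood test), with Benjamini-Hochberg adjustment over all genes of the fit and a threshold of 0.05. SEs are the fold change over the root of its F. DESeq2 1.42.0, DESeq2 size factors, no filter, a 5% mitochondrial limit, each library left out and a replicate block were alternatives, and leaving out the barcodes shared by the CL replicate 2 libraries was added after seeing the data. Whole-fraction sums were not counted among the classes. Deviations from the group means of same-numbered libraries correlated at 0.317, 0.197 and 0.384 (RT with COLD, RT with CL, COLD with CL) in Lin+ and at 0.213, 0.0235 and 0.480 in Lin-, and since the study's methods use the number for the experiment from which the libraries were merged, numbers were taken as pairs and blocked values stand beside the results they change. Neighbouring classes were compared with exact sign-flip tests on log2(CPM + 1), and cell shares with exact permutation tests (scipy 1.17.1). Intervals on ratios of sparse counts are exact at 95% and cover counting error only. Replicates differed by a chi-square of 35.4 to 274 per degree of freedom and were separate libraries. On simulated counts of the macrophage-like class (11100 genes), 56% of genes changed 2-fold and 99% of those changed 4-fold were recovered in the cold comparison. The changed genes were drawn only from those with higher expected counts in the smallest library, so the rates do not cover sparse genes. Named genes of the pathway list are the at most 8 with the smallest adjusted p in a comparison. The files give symbols, and coordinates come from GRCm38 annotation.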

Additional observations from a re-analysis of the deposited data

Results flagged for a closer look

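Of 40 groups of 4 RT or cold libraries examined, 1 held a sample far from the others, where chance gives about 1 in 20. Il1rl1 in macrophage-like cells of C57 RT replicate 2 stood at 32.3 CPM, and the nearest of the other RT samples at 57.3 CPM.

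For 5 results the response differed between classes of cells, each by a class by treatment term with library as a block in edgeR. The cold response of Il33 was larger in ASC1-like than in ASC2-like cells by 2.77 on the log2 scale (adjusted p = 0.00732). Il33 responded less in ASC2-like than in ASC3-like cells in the cold (log2 difference -1.95, adjusted p = 0.0281) and with CL (-2.21, adjusted p = 0.00861). In macrophage-like against dendritic-like cells the cold difference was -2.11 for Il1rl1 (adjusted p = 0.00318) and -0.93 for Mrc1 (adjusted p = 0.0124). The macrophage-like sum holds a shift from MAC2-like to other macrophages in the cold, and in MAC2-like cells alone the Mrc1 fall (-0.97) was smaller than in dendritic-like cells (-1.49) and the Il1rl1 values were -3.25 and -2.87, differences that were not tested.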

How the results depend on the processing

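Alternatives moved the counts of calls more than the directions, and none of the 43 called fold changes and differences in response of the 10 genes changed sign under the alternatives run for them. Uncalled fold changes of single genes and those of the pathway list were not refitted one by one. Of 17 pairs of a gene and a class called in the cold, the count became 32 with no filter on low counts and 9 to 29 with a library left out. The 3 calls with CL became 6 with DESeq2, 18 with no filter, 6 with the replicate block and 0 to 19 with a library left out in the edgeR fit. Over both lines the count of 18 became 35 with no filter and 16 to 19 with a library left out. For the pathway list the 48 calls in the cold became 93 with no filter and 27 to 72 with a library left out, and the 13 with CL became 23 with DESeq2, 65 with no filter, 33 with the replicate block and 4 to 44 with a library left out. The 5 differences between classes became 3 with DESeq2, 8 with no filter, 7 with the block and 2 to 9 with a library left out. A group left with 1 library is assumed there to vary like the others. The 4 calls between neighbouring classes became 0 in the same exact sign-flip tests with the C57 libraries alone, where 0.0312 was the smallest unadjusted p that 6 libraries can give, so that this loss says nothing about stability. The cause of the other moves was not tested.

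The ILC2-like share difference in the cold changed sign as a share of immune-like Lin- cells (-4.04 percentage points, exact permutation p = 0.486) and was 0.184 to 0.776 with a library left out. The difference between CL and RT in this share was -0.960 to -0.491 percentage points with a library left out. As a share of immune-like Lin- cells it was -7.25 points, with groups that overlapped. Of these 43 the replicate block ended 1 call, Retnla in NK-like cells over both lines (-2.46).

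Shares of cells with a UMI moved with depth. Thinned to 500 UMIs the Il33 share was 11.6% in ASC2-like, 5.87% in ASC3-like and 2.01% in ASC1-like cells, and that of Mrc1 in MAC2-like cells 36.0% (84.9% unthinned). Sparse genes (Il5, Il13, Il4) and classes of few cells limit what could be tested.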
